A study of Mus musculus with 14 samples.

Results

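The breakdown of the branched-chain amino acids leucine, isoleucine and valine was followed through 10 genes: Bcat1, Bcat2, Bckdha, Bckdhb, Bckdk, Dbt, Ivd, Mccc1, Hibch and Pcca. They were taken from a list of pathway genes and were found on the arrays through the RefSeq accession of each probe, since the scanner files used here carry no gene-name column. All 10 genes had a probe, 13 probes in all, and all 13 passed the filter on dim probes, out of 32257 tested probes and 14867 named genes with a tested probe. The arrays were 1-colour Agilent SurePrint G3 mouse arrays, 1 sample per array, in a series titled for long noncoding RNA, and they carry the coding genes as well.

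All groups were male C57BL/6 mice labelled as 8 weeks old. In the MI groups a coronary artery on the front of the left ventricle was tied off for good, which causes a myocardial infarction (MI), and the ventricular border zone was taken after 3 days (5 arrays) or 14 days (5 arrays). Sham hearts (4 arrays) had the same operation without the tie, and the day on which they were taken is not given. The design text speaks of 5 sham-operated mice, and 4 sham arrays were analysed here. The labels do not tie each array to 1 mouse, so the p-values measure the spread between these samples. The protocols name poly-T purified mRNA in one place and 200 ng total RNA as the labelling input in another.

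Branched-chain amino acids are first stripped of their amino group by a transaminase, BCAT1 in the cytosol or BCAT2 in the mitochondrion. The transfer of this group forms glutamate. The resulting keto acids are then decarboxylated in the mitochondrion by the branched-chain keto acid dehydrogenase complex, the committed step, which is switched off by the kinase BCKDK and switched on by the phosphatase PPM1K. From there leucine ends in acetyl-CoA and acetoacetate, valine in propionyl-CoA, and isoleucine in both. Heart muscle is known to use BCAT2 and to oxidise the keto acids, while BCAT1 is known mainly from brain, dividing cells and activated immune cells.

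Levels below are log2 intensity minus that array's 75th percentile, so a difference of 1 is a doubling. Levels of different genes were not ranked against each other, because probes differ in brightness, and the marker sums given further on weigh bright probes most. On the 10 arrays with scanner files 54.8% to 66.1% of probes were well above background and no probe was saturated. Among all 14 arrays, those of a group correlated at 0.979 to 0.992 across tested probes. The arrays responded widely: at an adjusted p under 0.05 (limma, Benjamini-Hochberg over all tested probes), 65.2% of tested probes differed from sham at 3 days and 32.5% at 14 days, and 55.6% differed between the 14-day and the 3-day group. The median change of all tested probes was -0.19, -0.09 and 0.13 in these comparisons.

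At 3 days after MI, 9 of the 10 genes fell and 1, Bcat1, rose. Over all tested probes 39.7% were lower and 25.5% higher, and with 1 probe per named gene 70.2% passed, 40.5% lower and 29.8% higher. The median change of the 10 genes was -1.64, beside -0.15 over all named genes, and the 9 that fell stood at 23.9% to 51.1% of their sham level. In all 10 the arrays at 3 days and the sham arrays did not overlap, which held for 56.8% of tested probes. At 14 days each of these 9 genes was lower than sham, at 49.97% to 65.0% of its level, and Bcat1 was higher. The share called was 19.8% lower and 12.8% higher over all probes, and 40.1% (24.2% lower, 15.9% higher) over named genes. Arrays did not overlap for 8 of the 10 genes, against 27.4% of tested probes, with Bcat1 and Dbt the exceptions, and the median change was -0.78.

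Between 3 and 14 days, 9 genes rose and Bcat1 fell. Of all tested probes 32.7% were higher and 22.9% lower at 14 days than at 3 days, and of named genes 60.5% passed (33.6% higher, 26.9% lower). Overlap between the groups was absent for 8 genes, Bcat2 and Dbt being the exceptions, and for 40% of tested probes. Both MI groups are set against the same sham arrays, and the 14-day group against the same 3-day arrays, so the 3 comparisons are not independent of each other. Scaled by each array's median in place of its 75th percentile, 6 genes were higher and 1 lower at 14 days than at 3 days, since that scaling moves the median change of all probes by -0.20. With slide as a block on the 10 arrays whose slide is known, 3 were higher and 1 lower. In these whole-tissue samples fewer cells of a type and less RNA per cell cannot be told apart.

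**Figure D1:**
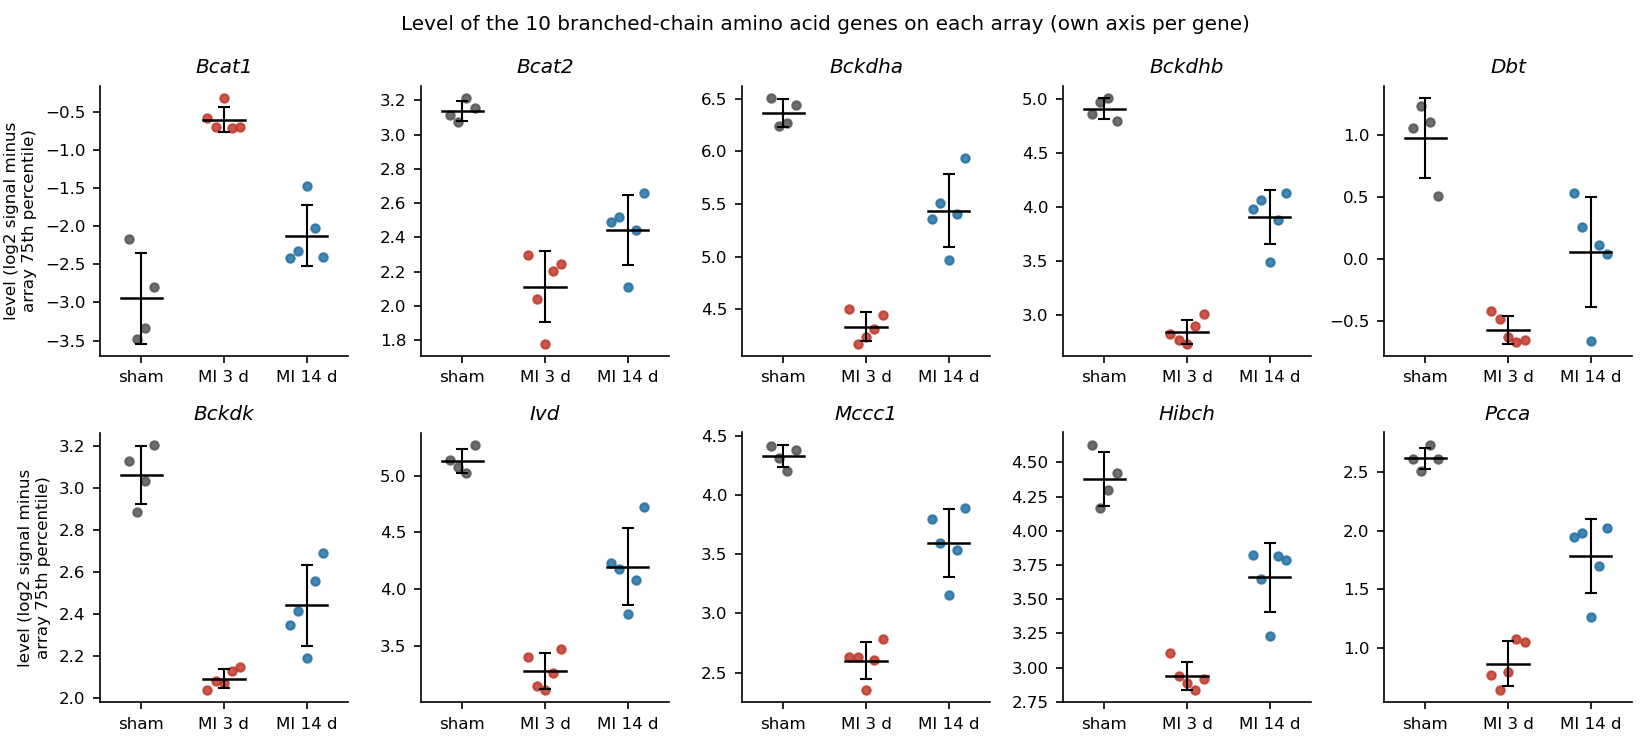
Level of each of the 10 genes (y axis, log2 scale, relative to each array's 75th percentile) on every array, by group; points are arrays, horizontal bars group means and error bars 1 SD (sham n = 4, MI 3 days n = 5, MI 14 days n = 5). Bcat1 is highest at 3 days (mean -0.60 against -2.95 in sham), while the 9 other genes are lowest at 3 days and lie between sham and that level at 14 days.

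Bcat1 and Bcat2 catalyse the same reaction and moved in opposite directions. Bcat1, the cytosolic transaminase, had levels of -2.17, -3.48, -3.34 and -2.79 on the 4 sham arrays (probe A_66_P127969). At 3 days after MI they were -0.58, -0.69, -0.32, -0.71 and -0.69, and at 14 days -2.41, -2.32, -1.47, -2.02 and -2.41. All 5 arrays at 3 days lay above every other array, while the 14-day arrays overlapped the upper end of sham. The mean level was -2.95 ± 0.60 (SD, n = 4) in sham, -0.60 ± 0.17 (n = 5) at 3 days and -2.12 ± 0.40 (n = 5) at 14 days. Bcat1 therefore stood 2.35 ± 0.25 (SE) above sham at 3 days, a 5.09-fold rise (limma adjusted p = 2.07e-06). At 14 days the difference from sham was 0.82 ± 0.25, or 1.77-fold (limma adjusted p = 0.0231). From 3 to 14 days it fell by 1.53 ± 0.24 (limma adjusted p = 0.000106).

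The 14-day rise of Bcat1 lay close to the threshold, and several settings and leave-outs lost the call. Without a filter on dim probes it was 0.82 (limma adjusted p = 0.0509). With only the 2 groups compared it was 0.82 (limma adjusted p = 0.0604). With scanner values on 10 arrays it was 0.87 (limma adjusted p = 0.0579). It also missed the threshold without sham replicate 2 (0.64, limma adjusted p = 0.0782) and without sham replicate 3 (0.69, limma adjusted p = 0.0742). The same held without 14-day replicate 3 (0.66, limma adjusted p = 0.0524) and with slide as a block on 10 arrays (0.73, limma adjusted p = 0.191). With normexp background correction of the scanner values it was 0.27 (limma adjusted p = 0.0690), and the 3-day rise was 1.10 (limma adjusted p = 2.53e-06). Within single slides Bcat1 was 2.63 and 2.10 above sham at 3 days (1 array against 1 on each of the 2 slides), and 0.41 and 0.83 above it at 14 days.

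Bcat1 has 2 further probes on the array. Probe A_55_P1960157 read -3.77, -5.82, -5.42 and -4.17 in sham, where it was well above background on 2 of 4 arrays. It read -0.34, -0.15, 0.33, 0.06 and 0.27 at 3 days, and -2.82, -3.46, -2.92, -2.80 and -3.33 at 14 days. No array of one group overlapped another group, and the change was 4.83 ± 0.35 at 3 days (limma adjusted p = 5.72e-08) and 1.73 ± 0.35 at 14 days (limma adjusted p = 0.00223). Probe A_55_P2079669, well above background on 3 of 4 sham arrays, rose by 2.70 ± 0.27 at 3 days (limma adjusted p = 1.18e-06) and differed by 0.40 ± 0.27 at 14 days (limma adjusted p = 0.288). All 3 probes thus read higher at 3 days, and at 14 days 2 of the 3 passed the test. The sham signal of both further probes was not well above background on every array, so no fold is given for them. Both passed the filter on dim probes only through the MI groups, where they read higher, so they are not separate support for the rise.

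**Figure D2:**
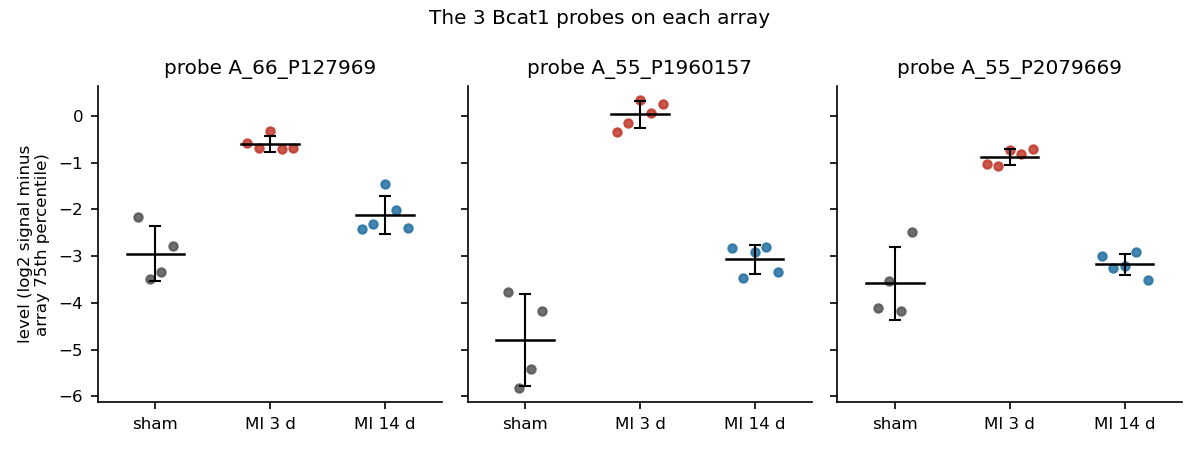
Levels of the 3 Bcat1 probes (y axis, log2 scale, relative to each array's 75th percentile) on every array by group; points are arrays, horizontal bars means and error bars 1 SD. Each probe is highest on all 5 arrays at 3 days; the middle probe separates the 14-day group from sham (change 1.73), and the right-hand one overlaps sham (change 0.40).

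Bcat2, the mitochondrial transaminase, had levels of 3.11, 3.07, 3.21 and 3.16 in sham. They were 2.29, 2.04, 1.78, 2.20 and 2.25 at 3 days and 2.49, 2.52, 2.11, 2.45 and 2.66 at 14 days. Every MI array lay below every sham array, and the 14-day and 3-day arrays overlapped. Bcat2 fell by 1.03 ± 0.12 at 3 days (49.1% of sham, limma adjusted p = 5.25e-06) and by 0.69 ± 0.12 at 14 days (61.8% of sham, limma adjusted p = 0.000946). The rise from 3 to 14 days was small, 0.33 ± 0.11 (limma adjusted p = 0.0243). It missed the threshold with slide as a block (0.22, limma adjusted p = 0.376), under median scaling (0.13, limma adjusted p = 0.413), and without any one of 4 arrays: 3-day replicates 2 (0.31) and 3 (0.25) and 14-day replicates 2 (0.31) and 5 (0.28), with limma adjusted p from 0.0504 to 0.0635.

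Subtracting Bcat2 from Bcat1 on each array removes the array's scaling. Relative to the sham mean, this within-array difference was 0.80, -0.47, -0.47 and 0.14 on the sham arrays. It was 3.21, 3.35, 3.99, 3.17 and 3.14 at 3 days and 1.18, 1.24, 2.51, 1.62 and 1.02 at 14 days, so no array of one group overlapped another. The balance between the genes had shifted towards Bcat1 by 3.37 ± 0.34 (SE) at 3 days, or 10.4-fold (two-sided exact permutation p = 0.0159). At 14 days the shift was 1.52 ± 0.40, or 2.86-fold (exact permutation p = 0.0159), and between the MI groups it was -1.86 ± 0.31 (exact permutation p = 0.00794). These are the smallest p-values that these numbers of arrays can give. Adjusted over the 6 tests of this kind, each was 0.0190. With normexp correction the shift was 1.96 at 3 days and 0.90 at 14 days. Which part of the size comes from the dim Bcat1 signal in sham was not tested.

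**Figure D3:**
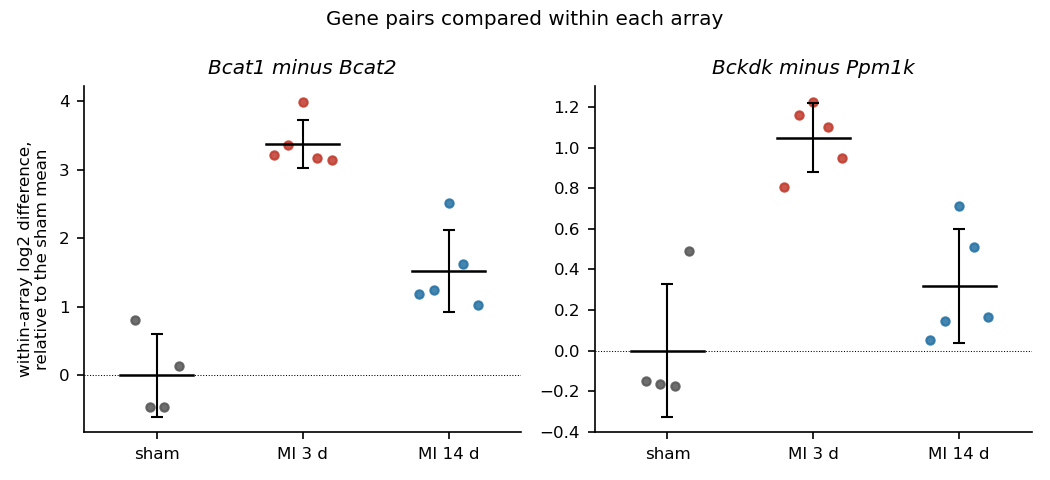
Within-array log2 difference of Bcat1 minus Bcat2 (left) and of Bckdk minus Ppm1k (right), relative to the sham mean (y axis); points are arrays, horizontal bars means and error bars 1 SD. Both differences are highest at 3 days (3.37 and 1.05); at 14 days the left one stays clear of sham (1.52) and the right one overlaps it (0.32).

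The sequence just before the annotated starts of these genes is shown because one of the pair rose while the other fell. Each line gives the 250 bases before a start from RefSeq (GRCm38.p6), on the gene's strand, with motif matches in capitals. Windows were held for 9 of the 10 genes (13 windows, Dbt without one). Both strands were searched for an E-box (CACGTG, in 6.02% of 32841 windows of all genes), a nuclear receptor half-site (AGGTCA, 14.0%), its extended form (TNAAGGTCA, 1.14%, which contains the former), a GC box (GGGCGG, 32.8%), a CACCC box (CACCC, 52.0%), an AP-1 site (TGANTCA, 6.75%), a CCAAT box (CCAAT, 33.9%) and a TATA box (TATAAA, 12.4%).
Bcat1 start 1, chr6:145076158-145076407, minus strand: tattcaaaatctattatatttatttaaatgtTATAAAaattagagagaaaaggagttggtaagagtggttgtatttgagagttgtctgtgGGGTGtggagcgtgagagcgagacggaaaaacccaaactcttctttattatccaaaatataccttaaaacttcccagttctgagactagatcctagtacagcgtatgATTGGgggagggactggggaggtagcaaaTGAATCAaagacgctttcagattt
Bcat1 start 2, chr6:145048813-145049062, minus strand: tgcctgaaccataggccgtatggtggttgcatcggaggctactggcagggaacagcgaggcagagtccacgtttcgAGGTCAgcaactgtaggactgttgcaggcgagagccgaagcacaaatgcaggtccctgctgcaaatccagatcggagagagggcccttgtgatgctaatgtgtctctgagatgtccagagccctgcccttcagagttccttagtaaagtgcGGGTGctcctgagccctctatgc
Bcat2 start 1, chr7:45569903-45570152, plus strand: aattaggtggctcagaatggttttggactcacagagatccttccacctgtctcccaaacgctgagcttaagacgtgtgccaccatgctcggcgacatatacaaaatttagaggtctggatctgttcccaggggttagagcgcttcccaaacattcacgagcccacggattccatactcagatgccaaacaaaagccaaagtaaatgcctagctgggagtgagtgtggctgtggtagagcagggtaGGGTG
Bcat2 start 2, chr7:45571029-45571278, plus strand: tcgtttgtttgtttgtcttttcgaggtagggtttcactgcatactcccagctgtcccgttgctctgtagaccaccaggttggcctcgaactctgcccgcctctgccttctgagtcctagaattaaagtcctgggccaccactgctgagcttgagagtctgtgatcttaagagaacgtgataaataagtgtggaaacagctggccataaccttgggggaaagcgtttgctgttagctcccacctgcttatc

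The first Bcat1 window held an AP-1 match 24 bases before the start, a CCAAT box at 53, a CACCC box at 160 and a TATA box at 219 bases. The second held a half-site at 174 and a CACCC box at 23 bases. Bcat2 had 1 CACCC match, at 5 bases before the first of its starts shown here, and 0 matches in its other window. The annotated gene begins farther upstream, at base 45568967 of chr7, and no window was held for that end. The few Bcat2 matches therefore come from an incomplete set of starts. A match is only a run of letters; binding was not measured. G and C made up 37.6% and 56.4% of the Bcat1 windows and 50.4% of each Bcat2 window, against a median of 52.4% over all windows.

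The 3 genes of the dehydrogenase complex itself fell at 3 days and stayed lower at 14 days. Bckdhb, which with Bckdha forms the decarboxylase core, had levels of 4.86, 4.97, 5.00 and 4.80 in sham. At 3 days they were 2.82, 2.76, 2.73, 2.89 and 3.01, and at 14 days 3.98, 4.06, 3.49, 3.88 and 4.12. The 3 groups did not overlap anywhere, with the 14-day arrays between the other groups. Bckdhb fell by 2.06 ± 0.12 at 3 days, to 23.9% of sham (limma adjusted p = 8.77e-09), and by 1.0 ± 0.12 at 14 days, to 49.97% (limma adjusted p = 6.27e-05). It had the lowest adjusted p of the 10 genes at both times and rose by 1.06 ± 0.11 in between (limma adjusted p = 3.54e-06). The sequence before its first start holds 8 motif matches and is shown as that of the most changed subunit.
Bckdhb start 1, chr9:83924887-83925136, plus strand: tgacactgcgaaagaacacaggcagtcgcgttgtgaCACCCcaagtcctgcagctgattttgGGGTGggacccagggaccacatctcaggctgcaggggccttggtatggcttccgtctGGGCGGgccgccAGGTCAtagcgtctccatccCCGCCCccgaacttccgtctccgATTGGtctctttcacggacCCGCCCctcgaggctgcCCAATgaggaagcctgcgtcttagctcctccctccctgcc

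In that window, 63.2% of which is G or C, lie 3 GC boxes, at 131, 99 and 57 bases before the start, a half-site at 119, CACCC boxes at 214 and 188, and CCAAT boxes at 76 and 40. The second Bckdhb window, by contrast, is 36.4% G or C and holds 0 matches.

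Bckdha, the other chain of the decarboxylase, read 6.50, 6.24, 6.27 and 6.44 in sham. It read 4.50, 4.17, 4.24, 4.31 and 4.45 at 3 days and 5.36, 5.51, 4.97, 5.40 and 5.94 at 14 days. Again the 3 groups were separate, with falls of 2.03 ± 0.15 (24.5% of sham, limma adjusted p = 8.35e-08) and 0.93 ± 0.15 (52.6% of sham, limma adjusted p = 0.000650). Dbt, the transacylase core on which the complex is built, read 1.05, 1.23, 1.10 and 0.50 in sham. Its levels were -0.42, -0.49, -0.63, -0.67 and -0.66 at 3 days and 0.53, 0.25, -0.66, 0.11 and 0.04 at 14 days. The 3-day arrays lay below all sham arrays, but at 14 days replicate 1 reached above sham replicate 4 and replicate 3 lay among the 3-day arrays. Dbt fell by 1.55 ± 0.20 at 3 days (limma adjusted p = 1.36e-05) and by 0.92 ± 0.20 at 14 days (limma adjusted p = 0.00377). The latter missed the threshold with slide as a block (-0.74, limma adjusted p = 0.0563). Dld, the shared dihydrolipoamide dehydrogenase that the complex borrows, fell by 1.38 ± 0.15 at 3 days (limma adjusted p = 2.41e-06) and by 0.71 ± 0.15 at 14 days (limma adjusted p = 0.00296).

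The kinase and the phosphatase of the complex act against each other, and both transcripts fell. Bckdk read 3.13, 2.88, 3.03 and 3.2 in sham, 2.04, 2.08, 2.07, 2.13 and 2.15 at 3 days, and 2.35, 2.42, 2.19, 2.56 and 2.69 at 14 days. All groups were separate, with narrow spread at 3 days. It fell by 0.97 ± 0.10 (51.1% of sham, limma adjusted p = 1.49e-06) and by 0.62 ± 0.10 (65.0% of sham, limma adjusted p = 0.000570). Ppm1k read 2.56, 2.33, 2.49 and 2.0 in sham, 0.52, 0.20, 0.13, 0.31 and 0.48 at 3 days, and 1.58, 1.56, 0.76, 1.33 and 1.81 at 14 days. Its groups were separate too, and it fell by 2.02 ± 0.18 (24.7% of sham, limma adjusted p = 4.72e-07) and by 0.94 ± 0.18 (52.2% of sham, limma adjusted p = 0.00196).

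Within each array, Bckdk minus Ppm1k relative to the sham mean was -0.15, -0.16, -0.17 and 0.49 in sham. At 3 days it was 0.81, 1.16, 1.23, 1.10 and 0.95, above every sham array. At 14 days it was 0.05, 0.14, 0.71, 0.51 and 0.16, on either side of sham replicate 4. The kinase transcript had therefore gained 1.05 ± 0.18 (SE) on the phosphatase transcript at 3 days, or 2.07-fold (two-sided exact permutation p = 0.0159, adjusted over the 6 tests 0.0190). At 14 days the shift was 0.32 ± 0.21 (exact permutation p = 0.206, adjusted 0.206), and from 3 to 14 days it was -0.73 ± 0.15 (exact permutation p = 0.00794, adjusted 0.0190). Without sham replicate 4 the 14-day shift was 0.48 (exact permutation p adjusted over the 6 tests 0.0357).

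In the leucine arm both genes fell at both times. Ivd, isovaleryl-CoA dehydrogenase, read 5.14, 5.08, 5.03 and 5.27 in sham. It read 3.4, 3.15, 3.11, 3.26 and 3.47 at 3 days and 4.23, 4.18, 3.78, 4.08 and 4.72 at 14 days. These 3 groups did not overlap. The falls were 1.85 ± 0.15 (27.8% of sham, limma adjusted p = 1.69e-07) and 0.93 ± 0.15 (52.5% of sham, limma adjusted p = 0.000587). Mccc1, the biotin-bearing subunit of methylcrotonyl-CoA carboxylase, read 4.42, 4.32, 4.20 and 4.38 in sham, 2.63, 2.63, 2.35, 2.60 and 2.79 at 3 days, and 3.8, 3.59, 3.16, 3.53 and 3.89 at 14 days. It was likewise separate in all groups and fell by 1.73 ± 0.13 (30.1% of sham, limma adjusted p = 1.08e-07) and by 0.74 ± 0.13 (60.04% of sham, limma adjusted p = 0.00122). Its second probe, A_55_P1970414, gave falls of 2.24 ± 0.13 and 0.96 ± 0.13 (limma adjusted p = 9.96e-09 and 0.000164). Further listed genes of this arm also fell at both times, the partner subunit Mccc2 by 1.93 and 0.87 and the hydratase Auh by 1.81 and 0.74.

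The valine arm is represented by Hibch, which removes CoA from hydroxyisobutyryl-CoA. It read 4.63, 4.17, 4.30 and 4.42 in sham, 3.11, 2.93, 2.89, 2.84 and 2.92 at 3 days, and 3.82, 3.65, 3.23, 3.82 and 3.78 at 14 days. Hibch groups were separate, with falls of 1.44 ± 0.13 (36.8% of sham, limma adjusted p = 3.90e-07) and 0.72 ± 0.13 (60.8% of sham, limma adjusted p = 0.00112). Aldh6a1, the dehydrogenase that turns the valine product into propionyl-CoA, fell by 2.22 ± 0.15 at 3 days (21.5% of sham, limma adjusted p = 3.30e-08) and by 0.94 ± 0.15 at 14 days (limma adjusted p = 0.000511). Acad8, isobutyryl-CoA dehydrogenase, did not pass the test: it read -3.03, -2.86, -2.58, 0.41 and -2.50 at 3 days against -1.23, -1.60, -1.74 and -1.45 in sham (change -0.60 ± 0.53, limma adjusted p = 0.330). Replicate 4 alone stood above sham, and without it Acad8 fell by 1.23 ± 0.15 (limma adjusted p = 1.50e-05). The third listed valine gene, Hibadh, had no probe matched to it.

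At the propionate end, Pcca, the biotin-bearing subunit of propionyl-CoA carboxylase, read 2.61, 2.51, 2.73 and 2.61 in sham. It read 0.77, 0.64, 0.80, 1.08 and 1.05 at 3 days and 1.95, 1.98, 1.26, 1.70 and 2.02 at 14 days. Pcca groups were separate, and the gene fell by 1.75 ± 0.15 (limma adjusted p = 2.34e-07) and by 0.83 ± 0.15 (limma adjusted p = 0.00105). The other 5 listed genes of this end, Pccb, Mcee, Mmut, Mmaa and Mmab, which carry propionyl-CoA to succinyl-CoA, all fell at both times, by a median of 1.51 and 0.64. Of their further probes, 1 of Mmaa (-0.67) and 2 of Mmab (-0.06 and -0.46) did not pass at 14 days. The isoleucine arm did the same with 3 of 3 genes (Acadsb, Hsd17b10 and Acat1, median falls of 1.30 and 0.75), as did the shared steps Echs1 and Hadha (2 of 2).

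One array recurred among the extremes. MI 14 days replicate 3 had the lowest level of its group for 9 of the 9 genes that fell and the highest for Bcat1, while 14-day replicate 5 was highest for 7 of the 9. This is not particular to the members. Replicate 3 was also lowest of its group for the cardiomyocyte markers Myh6, Tnnt2, Tnni3, Ryr2, Pln, Atp2a2, Ckm and Mb. It was not lowest for Actc1, Myl2, Myl3 and the brightest Ttn probe. On the further Ttn probes it was lowest, at 5.79, 3.95 and 2.90. The share over all tested probes was not counted. Without replicate 3 all 9 falling genes still passed at 14 days, and Bcat1 did not. In each of the 5 combinations of slide and comparison that could be formed, 10 of 10 genes kept the direction of the whole comparison. These combinations hold 1 to 3 arrays per group, all of them also part of the whole comparison, so they are not a separate test. How many of all tested probes kept their direction was not counted. The slide of 4 of the arrays is not known from the files used here.

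Beyond the members, 40 further genes of the pathway and its surroundings were followed, and 39 had a tested probe. At 3 days 5 of them rose, 30 fell and 4 did not pass (median change -1.27). At 14 days 2 rose, 27 fell and 10 did not pass (median -0.60), and from 3 to 14 days 28 rose, 6 fell and 5 did not pass (median 0.63). With slide as a block, 18 fell and 0 rose at 14 days, and from 3 to 14 days 14 rose and 3 fell.

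**Figure D4:**
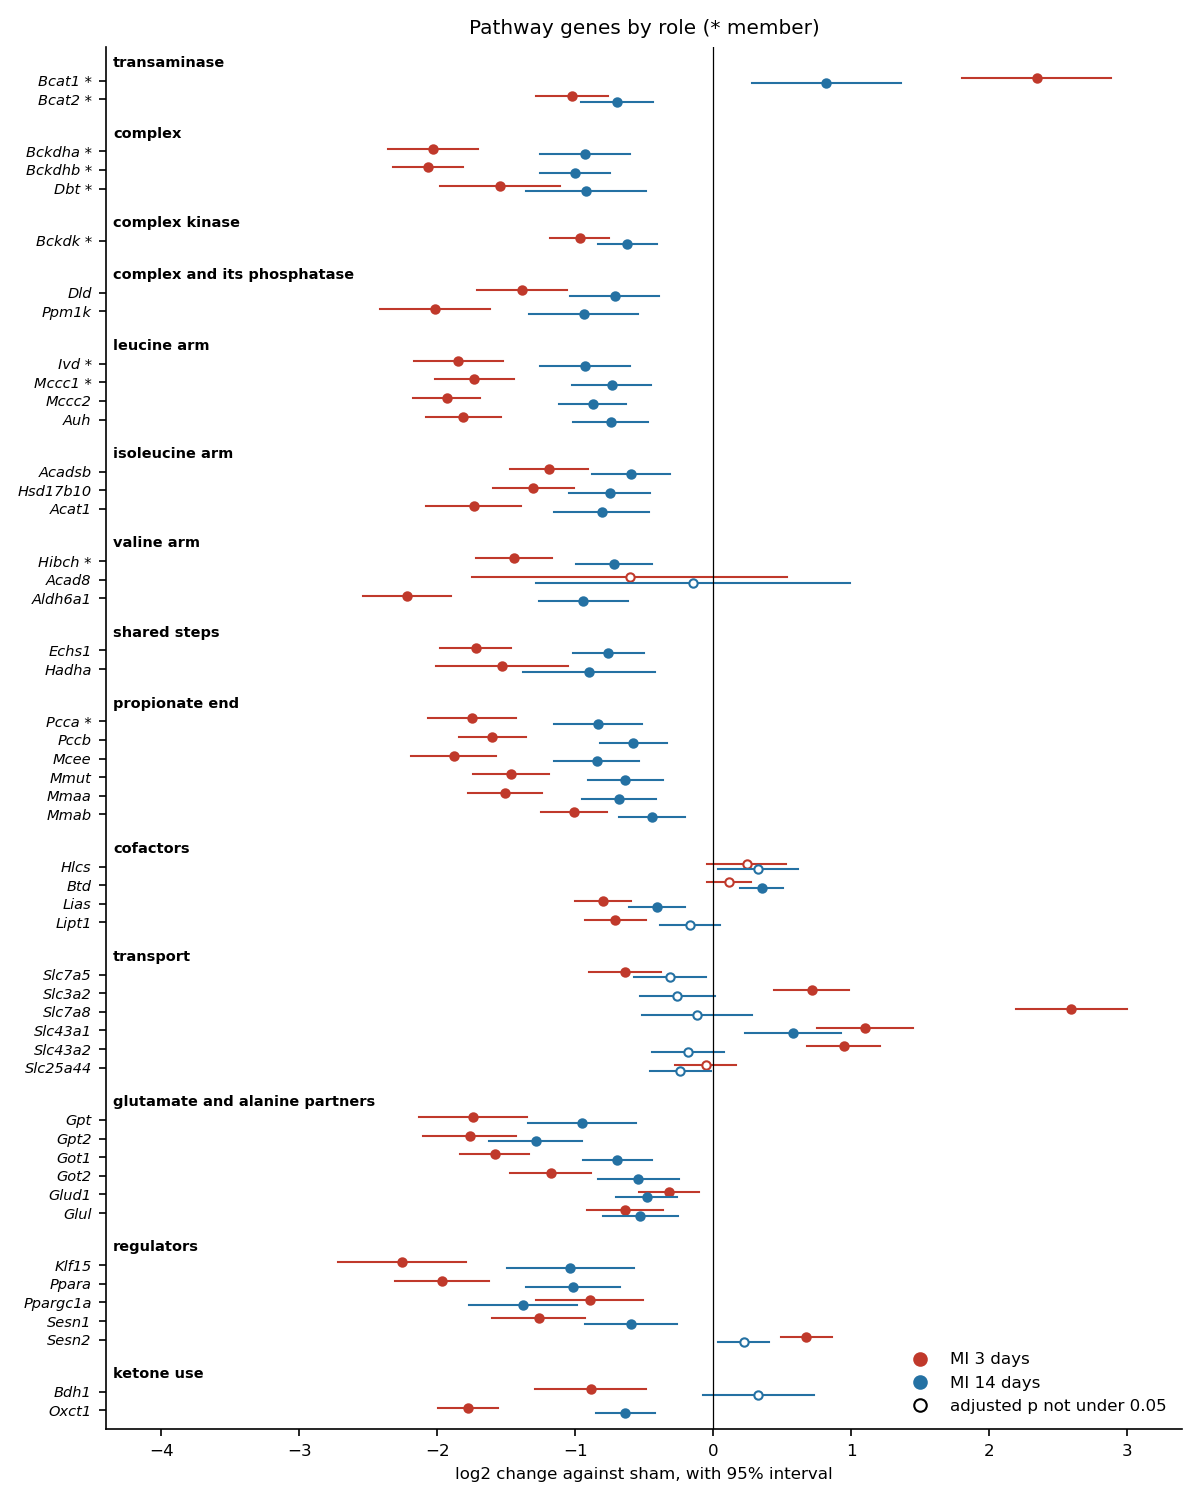
Log2 change from sham (x axis, with 95% intervals from limma) of the 10 members (starred) and the 39 other pathway genes with a tested probe, grouped by role (y axis), at 3 days (red) and at 14 days (blue); open circles did not pass the test. Apart from Bcat1 (2.35 at 3 days) the breakdown enzymes lie to the left of 0, farther out at 3 days, and the transporter Slc7a8 (2.60) lies farthest to the right.

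Of the 5 listed genes that rose at 3 days, 4 encode plasma-membrane transporters or their chaperone. Slc7a8, a transporter of large neutral amino acids, read -3.03, -3.10, -3.08 and -2.48 in sham and -0.45, -0.45, 0.18, -0.49 and -0.41 at 3 days. At 14 days it read -3.24, -3.40, -2.61, -3.06 and -2.88, in and just below the sham range. The 3-day rise was 2.60 ± 0.19, or 6.05-fold (limma adjusted p = 5.61e-08), and the 14-day difference was -0.12 ± 0.19 (limma adjusted p = 0.673). Slc43a1 (1.10), Slc43a2 (0.95) and Slc3a2 (0.72), which carry or chaperone carriers of these amino acids, also rose at 3 days, and of the 4 only Slc43a1 passed at 14 days (0.58 ± 0.16, limma adjusted p = 0.0144).

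The probes of Slc7a5, the partner of Slc3a2, went opposite ways. Its brighter probe fell by 0.64 ± 0.12 at 3 days (limma adjusted p = 0.000397) and the other, A_55_P1973941, rose by 2.33 ± 0.20 (limma adjusted p = 2.17e-07), so no direction is given for the gene. Slc25a44, the mitochondrial carrier of branched-chain amino acids, did not pass in any comparison (-0.05 ± 0.10 and -0.24 ± 0.10 against sham).

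Partners of the transaminases fell: 6 of 6 genes of glutamate and alanine exchange were lower at both times. Gpt2, the mitochondrial alanine transaminase, changed by -1.76 ± 0.16 and -1.29 ± 0.16 (limma adjusted p = 3.63e-07 and 8.13e-05), and Got1, the cytosolic aspartate transaminase, by -1.58 and -0.69. Glud1, glutamate dehydrogenase, changed least (-0.32 and -0.48), and its second probe did not pass at 3 days (0.09). Oxct1, the rate-limiting enzyme of ketone body oxidation, fell by 1.78 and 0.64. Bdh1, the ketone body dehydrogenase, fell by 0.89 at 3 days and did not pass at 14 days (0.33 ± 0.19, limma adjusted p = 0.20).

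Among the 5 regulators, Klf15, a transcription factor known to drive branched-chain amino acid breakdown in muscle, read 2.53, 1.90, 1.70 and 1.99 in sham. It read 0.24, -0.35, -0.30, -0.41 and -0.31 at 3 days and 1.24, 1.16, 0.47, 0.68 and 1.44 at 14 days, with no overlap between groups. Klf15 fell by 2.26 ± 0.22 (20.9% of sham, limma adjusted p = 6.95e-07) and by 1.03 ± 0.22 (48.8% of sham, limma adjusted p = 0.00276). Ppara, a nuclear receptor of fatty acid oxidation, fell by 1.96 and 1.02. Ppargc1a, a coactivator of mitochondrial genes, had another time course, with falls of 0.90 ± 0.18 at 3 days and 1.38 ± 0.18 at 14 days, and a further drop of 0.48 ± 0.17 between them (limma adjusted p = 0.0278). Sesn2, a leucine sensor, rose by 0.68 ± 0.09 at 3 days (limma adjusted p = 1.03e-05), while its relative Sesn1 fell by 1.27 and 0.59. Of the 4 cofactor genes, Lias and Lipt1, which make and attach lipoate, fell by 0.80 and 0.71 at 3 days, and the biotin genes Hlcs and Btd did not pass then (0.24 and 0.11).

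The genes whose pattern over the 14 arrays was most like that of Bcat1 were Apbb1ip, Rap2b, Gpr65, Rai14 and Dhx58. Likeness was the root mean square difference between levels centred on each gene's own mean, and it was 0.245 to 0.264 for these genes against a median of 1.11 over 14216 named genes. Bcat2 ranked 11841 in that order. For Bcat2 the most like genes were Gys1, Ipo13, Phpt1, Mrpl51 and Rbm24 (0.084 to 0.100, median of all 0.488), and Bckdk, at rank 119, was the nearest of the other members. The other 7 members that fell ranked from 1496 to 6273 in its order, and Bcat1 ranked 13492. The 14 arrays share 3 group means, which this measure also holds.

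Markers of several cell types moved with these genes. Of the 12 cardiomyocyte markers 12 fell at 3 days (median -1.31) and 6 fell at 14 days (median -0.30, 6 not passing). Their summed level, in multiples of the array's 75th percentile, was 7327 to 9080 in sham, 4199 to 4862 at 3 days and 7303 to 10068 at 14 days, with medians of 8594, 4691 and 7740. Over the same arrays, the 9 falling members had a median change of -1.73 at 3 days and -0.83 at 14 days. None of the cardiomyocyte markers was at background in any group. For Myh6 the size of the change depended on the probe, and at 14 days the probes averaged on opposite sides of sham. Its brightest probe averaged 10.07 in sham, 9.53 at 3 days and 10.15 at 14 days, and A_55_P2140453 averaged 5.88, 4.05 and 5.25. The further probes of Ttn and Atp2a2 averaged lower than sham at both times, as did their brightest probes. Whether cardiomyocyte content has a part in the falls was not tested.

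Beside the rise of Bcat1, 10 of 11 macrophage markers rose at 3 days (median 1.91), and 6 rose at 14 days with 5 not passing (median 0.60). The remaining one at 3 days, Itgam, has no settled direction: its brightest probe fell by 0.75, another fell by 0.99 and A_55_P1977929 rose by 2.5 (limma adjusted p = 4.39e-07). The summed level was 181 to 235 in sham, 202 to 276 at 3 days and 210 to 244 at 14 days. The brightest Itgam probe, which fell at 3 days, made up 75.5% of this sum in sham, so the sum follows mostly that probe. Cycling-cell markers rose at 3 days in 6 of 6, and 0 of 6 passed at 14 days. Their sum was 0.940 to 2.36 in sham, 24.1 to 32.7 at 3 days and 1.71 to 4.63 at 14 days. Aurkb was not well above background in any group. Bub1 was well above it on 1 of 4 sham arrays and 1 of 4 at 14 days, and Top2a on 3 of 4 in each. Both passed the filter on dim probes only through the 3-day group, where they read highest. Cdk1 and Ccnb1 were well above background on 3 of 4 sham arrays. Of the 7 neutrophil markers 5 rose and 1 fell at 3 days, and 1 rose at 14 days, with sums of 211 to 231, 194 to 274 and 217 to 242. Csf3r alone made up 96.6% of the sham sum, so the sum follows mostly that probe. Its mean level was 7.71 in sham, 7.52 at 3 days and 7.77 at 14 days, while that of S100a8 was -0.16, 3.82 and -0.17. Mmp8 was not well above background in sham or at 14 days, and Cxcr2 was well above it on 2 of 4 sham arrays and 1 of 4 arrays at 14 days. Mpo was well above it on 1 of 4 sham arrays and 3 of 4 arrays at 14 days. Mmp8, Cxcr2 and Mpo passed the filter on dim probes only through the 3-day group, where they read highest.

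Fibroblast markers rose in 6 of 9 at 3 days, with 1 lower, and in 9 of 9 at 14 days. Their summed level was 426 to 455 in sham, 874 to 1207 at 3 days and 1149 to 1652 at 14 days, so the 3-day and 14-day ranges overlapped. Endothelial markers were 1 higher and 2 lower of 8 at 3 days (sums of 100.2 to 112 in sham, 84.4 to 108 at 3 days and 100.1 to 118 at 14 days), with 1 lower at 14 days. Smooth muscle markers were 5 higher and 2 lower of 7 at 3 days and 2 higher at 14 days, with sums of 72.8 to 86.4, 113 to 172 and 68.1 to 106. Of 5 lymphocyte markers 1 fell at 3 days and 0 passed at 14 days (sums of 8.47 to 9.40, 6.39 to 8.69 and 7.29 to 8.92), and Cd3g and Cd8a did not pass the filter on dim probes. Single genes weighed heavily in these sums too. In sham, Dcn made up 67.4% of the fibroblast sum and Egfl7 63.8% of the endothelial sum. Cd4 made up 63.1% of the lymphocyte sum and Acta2 41.4% of the smooth muscle sum. The part of any of these cell types in the rise of Bcat1 was not tested.

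**Figure D5:**
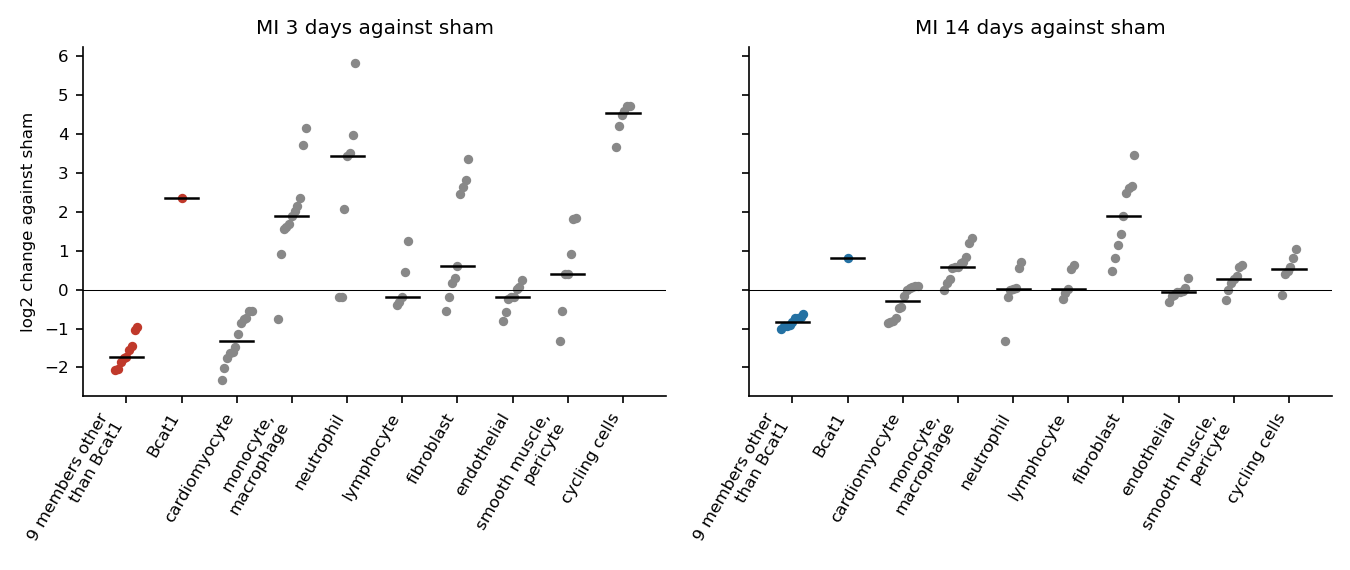
Log2 change from sham (y axis) at 3 days (left) and at 14 days (right) of the 9 members other than Bcat1, of Bcat1 and of every tested marker of each cell type; points are genes and bars medians. At 3 days the 9 members (median -1.73) lie beside the cardiomyocyte markers (median -1.31), and at 14 days the medians are -0.83 and -0.30.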

How the data were processed

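The value table deposited by the authors gives linear Cy3 intensities, 1 for each probe on each array, not scaled between arrays (75th percentiles 189 to 443). Per the file headers, the scanner files of 10 of the 14 arrays come from Agilent Feature Extraction 10.7.3.1, and their single-spot probes equal the table within a tolerance of 1e-05. The submitters' processing notes list limma, without saying what it did.

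Log2 of the table's intensity minus each array's 75th percentile over 55482 probes was fitted for all 14 arrays (sham 4, MI 3 days 5, MI 14 days 5) by linear models in R 4.3.3 (limma 3.58.1, functions lmFit, contrasts.fit and eBayes, two-sided). Benjamini-Hochberg adjustment ran over 32257 tested probes, those that exceeded background clearly on all scanner arrays of 1 group or more. The threshold was an adjusted p under 0.05. For the 4 arrays without a scanner file background calls were not used here. The fit was tested on simulated data.

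The rule names probes by the scanner files' gene names. The files used here hold accessions, so 27144 probes were named through RefSeq (GRCm38.p6). Of that table's gene coordinates only the start of Bcat2 was used, to place its windows. The brightest tested probe stands for a gene. Gene pairs were compared by exact permutation of the arrays, 6 tests adjusted together. Named genes are the members, the listed pathway genes, the 5 most like Bcat1 and Bcat2, and cell type markers; 1 listed gene is not reported here. The members and lists were chosen with earlier results of these data known. The number of arrays limits the precision.

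Alternatives were other scalings, filters on dim probes, scanner values, normexp with an offset of 50 (on median signals, as mean signals are not in the files used here), slide or replicate number as a block, other variance settings, the mean of a gene's probes, and leaving out each array. Counts over the other pathway genes under these alternatives were added after seeing the data.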

Additional observations from a re-analysis of the deposited data

Results flagged for a closer look

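The change at 14 days differed from the change at 3 days for 10 of the 10 genes on 14 arrays, tested as the difference between the MI groups (limma, adjusted over all tested probes). In the same test 55.6% of all tested probes and 60.5% of named genes passed. With slide as a block on 10 arrays 4 of the 10 passed (3 higher, 1 lower), and under median scaling Bcat2, Dbt and Bckdk did not pass. The 14-day minus the 3-day change was -1.53 for Bcat1, lower on 5 of 5 arrays than on any 3-day array. It was 1.10 for Bckdha, 1.06 for Bckdhb, 0.99 for Mccc1, 0.92 for Ivd, 0.91 for Pcca and 0.72 for Hibch. Smaller differences were found for Dbt (0.63), Bckdk (0.35) and Bcat2 (0.33), and the limma adjusted p over the 10 genes ran from 3.54e-06 (Bckdhb) to 0.0243 (Bcat2). The same difference was -1.86 for Bcat1 minus Bcat2 and -0.73 for Bckdk minus Ppm1k (exact permutation test, adjusted p = 0.0190 for each).

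Single arrays far from the rest of their group were looked for in 153 sets of 4 or 5 arrays, the members, the other pathway genes and the gene pairs, and 12 were found; chance alone picks about 1 in 20. None concerned the level of a member. Relative to the sham mean, Bcat1 minus Bcat2 was 3.99 on 3-day replicate 3 (next 3.35), and Bckdk minus Ppm1k was 0.49 on sham replicate 4 (next -0.15). On 3-day replicate 3, Slc7a8 was at 0.18, Slc43a1 at -1.09 and Glul at 4.53. On 14-day replicate 3, Dld was at 4.04 and Mmaa at 3.22, each the lowest of its group. The others were Slc7a8 on sham replicate 4 (-2.48), Slc43a2 on 14-day replicate 2 (0.45), Slc25a44 and Klf15 on 3-day replicate 1 (-0.78 and 0.24), and Acad8 on 3-day replicate 4 (0.41, next -2.50).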

How the results depend on the processing

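All 10 genes passed at 3 days under each of the 12 alternative settings and 14 leave-outs. At 14 days 8 to 10 passed (9 to 10 in the leave-outs), and between 3 and 14 days 4 to 10 (9 to 10), the 4 with slide as a block on 10 arrays. No alternative reversed a direction among the members or pairs. With normexp on 10 arrays, Bcat1 minus Bcat2 was 1.96 at 3 days, 0.90 at 14 days and -1.06 from 3 to 14 days. With scanner values on 10 arrays it was 1.58 at 14 days. Both 14-day values had an exact permutation p of 0.0286, the smallest that 4 arrays against 4 can give. Adjusted over the 6 tests it was 0.16 in both settings. With only 2 arrays at 3 days, no pair can pass the adjusted threshold in these settings. The 0.16 therefore does not tell whether the shift weakened. Leave-outs gave 3.22 to 3.64, 1.27 to 1.78 and -2.11 to -1.70 for Bcat1 minus Bcat2. For Bckdk minus Ppm1k they gave 0.99 to 1.21, 0.22 to 0.48 and -0.83 to -0.66. Its 14-day value passed only without sham replicate 4. Among single members, 29 calls were lost: 22 under settings and 7 under leave-outs, all at 14 days or between 3 and 14 days. The cause was not tested, beyond the fewer arrays of 10-array settings.

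Replicate numbers did not pair the arrays (correlations of same-numbered deviations -0.14 to 0.22), and with the replicate block 10 genes passed in each comparison. Same-slide and same-number fits of the pairs cannot reach 0.05, so they are values only: Bcat1 minus Bcat2 with the replicate block was 3.43, 1.64 and -1.86, and Bckdk minus Ppm1k was 1.07, 0.36 and -0.73. Over all probes, 10489 passed at 14 days (5082 with slide as a block) and 17945 between 3 and 14 days (9127 with slide as a block, 10713 with normexp). Of the other pathway genes, 29 passed at 14 days (18 with slide as a block) and 34 between 3 and 14 days (17 with slide as a block, 21 with normexp). The share of calls that were lower was 60.9% at 3 days (49.0% under median scaling), 60.7% at 14 days (46.9% scaled on tested probes) and 41.2% between them (61.4% under median scaling). Median scaling moved the median change of all probes by 0.18 at 3 days. Signal over background limits the dim Bcat1 probes in sham.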
